A study of Drosophila melanogaster with 14 samples.

Results

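Newly replicated DNA of GSC-like nuclei was compared between the first and the second of 4 parts of S phase, early (E) and early-mid (EM). The comparison takes 4 of the 14 Repli-seq libraries of the study, chosen by their titles: an E and an EM library from each of 2 replicates, paired by replicate number. It covers 13744 of the 13757 bins of 10 kb on the X and Y, on chromosome 4 and on both arms of chromosomes 2 and 3 (2L, 2R, 3L and 3R) of Drosophila melanogaster. The question asked here is which chromosomes, regions and genes took up more label in E than in EM, and which the reverse.

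The nuclei came from testis tumours made by overexpressing Unpaired (Upd), the ligand of the JAK-STAT pathway. The flies, kept at 25 °C, carried y[1] and w[1118] with the recombinase insertion P{hs70FLP}, the driver P{w[+mC]=GAL4::VP16-nanos.UTR} over the target UAS - Upd, and 1 copy of UAS-FRT-H3-GFP-FRT-H3-mKO, which expresses a fluorescent histone H3. All GSC-like groups share this genotype, so E and EM differ by the sort and by nothing in the genotype. The nanos driver is germline-specific per the design text, so sorting on GFP selects nuclei of a germline tumour grown under excess ligand, not of an undisturbed stem cell niche. Each preparation pooled 100 to 200 pairs of testes, which were incubated for 15 minutes with 100 mM of the nucleotide analogue BrdU. Nuclei were then divided by DNA content into equal E, EM, late-mid (ML) and late (L) fractions, and DNA that held BrdU was immunoprecipitated and sequenced. The measurement is of DNA, so the label GSC-like was not checked against expression of germline marker genes. The 6 CySC-like libraries, from tumours with a traffic jam driver of the somatic cyst lineage, are used only for values set beside those of the GSC-like nuclei. The age of the flies is not given in the sources used here.

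Replication starts from many origins that fire at different times in S phase, and the forks that leave them copy the flanking DNA until they meet. In flies, as in other animals, gene-rich and widely expressed regions tend to replicate early, while silent domains and the repeat-rich heterochromatin around centromeres tend to replicate late. The E and EM fractions divide the first part of S phase, so their ratio separates DNA copied at its opening from DNA that follows shortly after.

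Replicate 2 stood apart from replicate 1, and every result is therefore given for each. Replicate 1 was sequenced with single reads and held 86.2 M reads in E and 81.9 M in EM. Replicate 2 was sequenced with paired ends and held 7.05 M and 2.78 M. The median 10 kb bin on an arm held 6484 and 5933 reads in E and EM of replicate 1, against 326 and 120 in replicate 2. The counting error of that bin was 0.018 and 0.019 on the log2 scale in replicate 1, and 0.080 and 0.13 in replicate 2. Amplified reads that carry no molecular identifier can be copies of each other, so this error is a lower limit. The 100 highest of the 3 kb windows took 1.22% and 1.36% of the summed signal in replicate 1, but 5.70% and 6.21% in replicate 2. Across bins, Spearman's rho was 0.537 between the E libraries and 0.595 between the EM libraries. E of replicate 1 had a higher rho with E of the other cell type, 0.888 with CySC-like replicate 2 and 0.544 with CySC-like replicate 1. For E of replicate 2 these values were 0.465 and 0.371. Depth, read layout and replicate cannot be told apart in these libraries.

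The measure used below is log2(E/EM), the log2 ratio of the RPKM of a bin in E to that in EM of the same replicate, with 0.1 added to each. RPKM is the number of reads per kb of sequence per M reads of a library. In each replicate the median ratio of the autosomal arm bins was set to 0. A value above 0 therefore means a higher share in E than the typical bin of an autosomal arm. A level is the RPKM of a bin divided by that of the median autosomal arm bin of the same library. The SD of log2(E/EM) over bins was 0.63 in replicate 1 and 1.06 in replicate 2, so the same fold is a smaller departure in the latter.

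The profiles of the replicates had the same direction in most of the genome. Pearson's r between them was 0.750 and Spearman's rho 0.787 over 13744 bins, which share reads with their neighbours and are not independent. Both replicates were above 0 in 5525 bins and below 0 in 5980, so 83.7% of bins had the same sign. Yet no bin passed a test at an adjusted p of 0.05. In limma with the replicate as a block and Benjamini-Hochberg adjustment, 0 of 13744 bins (0%) were called in either direction. The lowest adjusted p was 0.0710. An unadjusted p under 0.05 was found in 5666 bins, made up of 25.4% of all bins on the E side and 15.8% on the EM side. With 2 replicates the fit has 1 residual degree of freedom, and its p-values cover only these samples. limma also draws the variance of each bin towards a trend fitted over all bins. The p-value of a bin therefore does not measure the spread of its own replicates alone. The bin of the gene aly, for example, had ratios of 0.84 and 0.85 but a standard error of 0.25.

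The number of calls turned on how E was scaled to EM. With each library scaled to an equal mean over all bins, limma called 2556 bins higher in E (18.6%) and 2414 higher in EM (17.6%) at the same adjusted p. Under that scaling the median autosomal arm bin had a log2(E/EM) of 0.003 in replicate 1 and -0.28 in replicate 2, a shift that moved every bin towards EM in replicate 2. The adjusted p-values quoted below are those of the main scaling unless equal mean scaling is named.

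Because no bin passed, bins are grouped below by size and agreement between replicates, a rule chosen after the values had been seen and not a test. By that rule, 2344 bins (17.1%) were at least 1.5-fold higher in E in both replicates and are called E-high, and 1851 (13.5%) were at least 1.5-fold higher in EM in both and are called EM-high. Only 2 bins were that much higher in E in replicate 1 and in EM in replicate 2, and 11 the reverse. Near the limit of 0.58 on the log2 scale, the smaller of the replicates' ratios lay within 0.1 above it in 537 E-high bins and within 0.1 below it in 538 other bins. The corresponding counts were 487 and 582 for EM-high, so the edges of both classes are gradual.

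**Figure D1:**
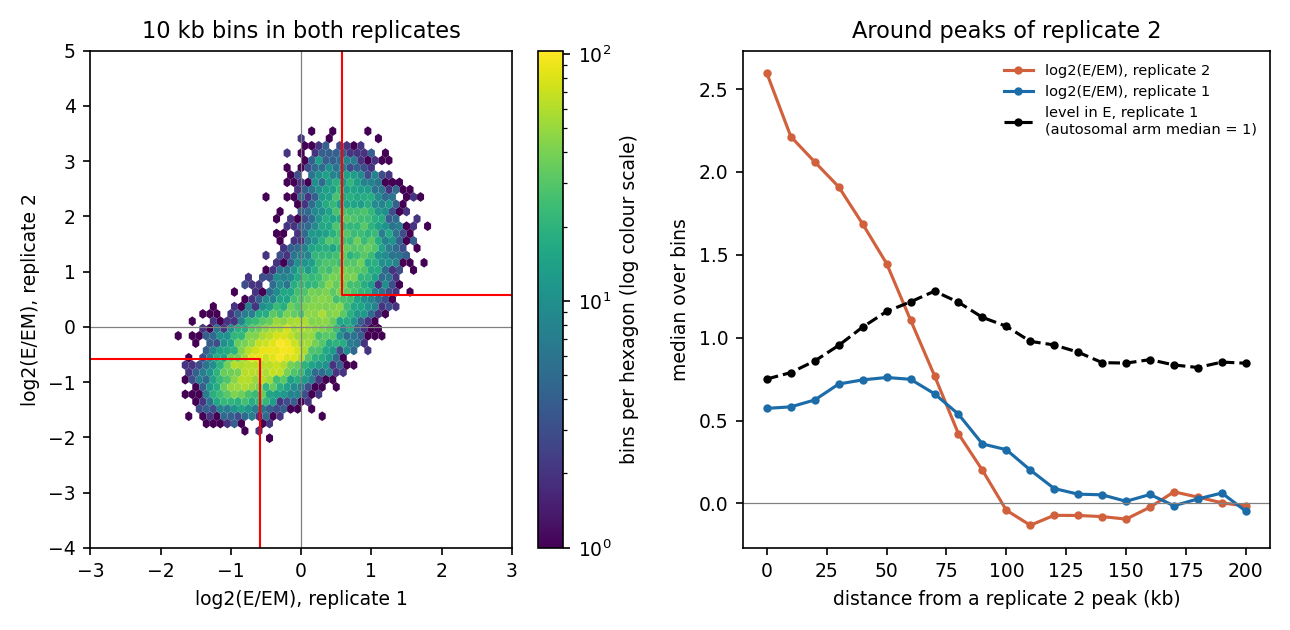
Left, log2(E/EM) of replicate 2 against replicate 1 for 13744 bins of 10 kb, coloured by bins per hexagon, with red lines at the 1.5-fold limits; 83.7% of bins have the same sign in both. Right, medians over bins by distance in kb from 149 peaks of replicate 2, where the level in E of replicate 1 goes from 0.750 at the peak to 1.28 at 70 kb.

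E-high and EM-high bins formed domains. The E-high bins, merged over gaps of at most 1 bin, gave 529 regions with a median length of 30 kb, of which 69 reached 100 kb and the longest 330 kb. The EM-high bins gave 480 regions with a median of 40 kb, of which 37 reached 100 kb and the longest 230 kb. Pearson's r of log2(E/EM) between bins 50 kb apart was 0.576 in replicate 1 and 0.518 in replicate 2. At 100 kb it was 0.304 and 0.0885, and at 200 kb 0.061 and 0.065.

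The 5 longest regions of each direction are named, with the longest coding genes that start in them. The longest E-high region, chr3R:9490001-9820000 in Release 6 (dm6) coordinates, holds the starts of 85 coding genes. Among them are Dhc1, a dynein heavy chain, mura, Dh44, a diuretic hormone, and Unc-115a, an actin-binding protein. It had 9.16 RPKM in E and 5.19 in EM of replicate 1, and 9.02 in E and 3.98 in EM of replicate 2. The mean log2(E/EM) over the region was 0.78 in replicate 1 and 1.45 in replicate 2. The lowest limma adjusted p of its bins was 0.0710, and 23 of its 33 bins were called with equal mean scaling.

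The region chr3R:29010001-29300000, with 49 coding starts, holds Bicra, wat, jus and the protein kinase Pkc98E. Its RPKM was 9.23 in E and 4.91 in EM of replicate 1, and 9.76 and 3.84 in replicate 2, giving log2 ratios of 0.87 and 1.64. The end of 2L, chr2L:60001-320000, with 45 coding starts, holds the phospholipase Plc21C, the nuclear proteins spen and kis, and ND-15. There the RPKM was 9.82 and 4.81 in replicate 1 and 11.2 and 3.68 in replicate 2, with log2 ratios of 0.97 and 1.87. All 26 of its bins were called with equal mean scaling.

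The region chr3R:23860001-24110000 holds eIF4EHP, which binds the mRNA cap and represses translation, with KrT95D, Pli and sba among 40 coding starts. Its RPKM was 10.3 and 5.65 in E and EM of replicate 1 and 9.36 and 4.62 in replicate 2, with log2 ratios of 0.82 and 1.29. The region chr3L:3060001-3280000 holds PAN3, a subunit of an mRNA deadenylase, the chitinase gene Cht7, promL and gry among 47 coding starts. Its RPKM was 8.74 and 4.25 in replicate 1 and 10.8 and 3.31 in replicate 2, with log2 ratios of 0.97 and 1.97. That E lay above EM in both replicates is given by the choice of these regions. In all 5 the ratio was larger in replicate 2.

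The longest EM-high region, chr3R:6750001-6980000, lies in the Antennapedia complex. It holds only 7 coding starts, among them the Hox genes Scr and Dfd, the anterior morphogen bcd and the adhesion gene Ama. Its RPKM was 4.22 in E and 7.97 in EM of replicate 1, and 1.31 and 3.25 in replicate 2, with log2 ratios of -0.94 and -0.96. Of its 23 bins, 21 were called with equal mean scaling. In the later fractions of replicate 2 it had 10.1 RPKM in ML and 2.47 in L, levels of 2.01 and 1.11 times the median autosomal arm bin. In replicate 1 the levels were 1.21 in ML and 0.961 in L, beside 1.10 in EM.

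The region chr3L:5470001-5670000 holds sif, an exchange factor for Rac, the transcription factor gene Blimp-1, the neuropeptide receptor gene Lkr and frm among 24 coding starts. Its RPKM was 4.30 in E and 8.54 in EM of replicate 1, and 1.38 and 3.42 in replicate 2, with log2 ratios of -1.02 and -0.94. The region chr2L:10520001-10700000 holds Trim9, Lip4, dbf and w-cup among 23 coding starts. Its RPKM was 4.55 and 8.28 in replicate 1 and 2.65 and 5.21 in replicate 2, with log2 ratios of -0.91 and -0.80.

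The region chr3R:17310001-17460000 holds beat-IIa, of a family of neuronal surface proteins, cysu, Brf, a factor of RNA polymerase III, and lute among 26 coding starts. Its log2 ratios were -0.81 and -0.85, from 4.74 and 8.12 RPKM in replicate 1 and 1.78 and 3.95 in replicate 2. The region chr2L:650001-790000 holds ds, an atypical cadherin of the Fat pathway, GABA-B-R3, Eaat2 and Gr21a among 9 coding starts. Its log2 ratios were -0.99 and -1.02, from 4.95 and 9.56 RPKM in replicate 1 and 3.16 and 7.07 in replicate 2. The 5 EM-high regions had nearly equal ratios in both replicates, unlike the 5 E-high regions.

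**Figure D2:**
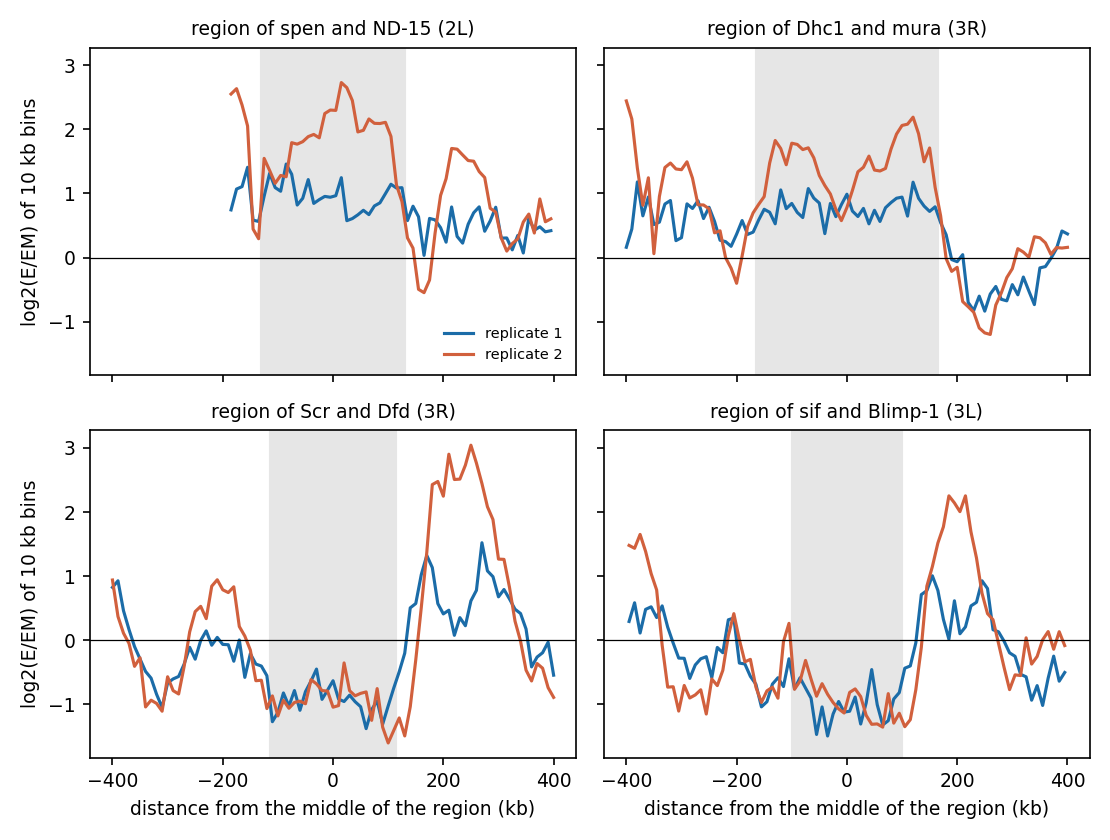
Profiles of log2(E/EM) over 10 kb bins of replicates 1 and 2 are shown by distance in kb from the middle of named regions (shaded). The E-high regions drawn are those of spen and ND-15 (2L) and of Dhc1 and mura (3R). The EM-high regions drawn are those of Scr and Dfd (3R) and of sif and Blimp-1 (3L). Region means were 0.97 and 1.87 for spen, 0.78 and 1.45 for Dhc1, -0.94 and -0.96 for Scr, and -1.02 and -0.94 for sif.

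Single bins reached further than these region means. The bin at chrX:15850001-15860000 had 1.90 and 0.907 RPKM in E and EM of replicate 1 and 6.42 and 0.552 in replicate 2, with ratios of 0.95 and 3.60. The bin at chr3R:6270001-6280000 had 3.38 and 10.1 RPKM in replicate 1 and 1.12 and 4.68 in replicate 2, with ratios of -1.59 and -1.69. These had the highest and lowest mean log2(E/EM) of all 13744 bins, and both had a limma adjusted p of 0.0710.

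E-high bins carried more gene starts than EM-high bins. On the autosomal arms the mean number of coding gene starts was 1.95 per E-high bin (n = 1628), 0.762 per EM-high bin (n = 1492) and 1.25 per bin overall (n = 9137). At least 1 coding start lay in 73.1% of E-high and 42.8% of EM-high bins. Across autosomal arm bins, which share reads with their neighbours, Spearman's rho between the number of starts and log2(E/EM) was 0.265 in replicate 1 and 0.313 in replicate 2. Mean GC content was close in the classes, at 43.4% in E-high and 42.5% in EM-high bins, and rho with GC content was 0.0757 and 0.123. Annotated transposable elements covered 1.17% of E-high and 1.21% of EM-high bins, against 3.80% of autosomal arm bins overall.

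The promoters of the classes differed in their short motifs. Promoter stretches from RefSeq on Release 6, from 250 bases before to 50 after the start of each gene, were searched on both strands. The DNA replication-related element (DRE), TATCGATA, is bound by the factor DREF and is known from promoters of replication and other growth genes in flies. It stood in 530 of 4041 promoters of genes that start in E-high bins (13.1%), in 54 of 1260 in EM-high bins (4.29%), and in 1307 of all 13967 (9.36%). The core of a motif common at widely used promoters, GGTCACAC, stood in 10.4%, 1.59% and 7.69% of these promoters. GAGAGAG, which the GAGA factor binds, ran the other way, with 3.93% in E-high, 7.70% in EM-high and 5.86% of all. TATAAAA, the TATA box, was near its share of all promoters, 24.2%, in both classes, with 24.7% and 23.6%. These shares describe the letters in the windows and were not tested, since promoters of 1 region share its timing. The DRE shares of the genome as a whole also mix chromosomes. On the autosomal arms alone they were 12.4% in E-high, 2.99% in EM-high and 8.55% of all promoters.

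Examples of the DRE from the named regions are printed to show the element and its flanks, with TATCGATA in capitals, 5′ to 3′ on the strand of the gene. ND-15 is the example among the longest genes of each region. The others were chosen after their values had been seen, as genes of known function. Ras85D encodes the Ras GTPase, Mesh1 a hydrolase of the stringent response nucleotide, mRpL10 a protein of the mitochondrial ribosome, Rab7 a GTPase of late endosomes, rasp an acyltransferase of Hedgehog and Hsp83 the Hsp90 chaperone.
ND-15, chr2L:114592-114621, plus strand: tgcaatcgataTATCGATAtgtcacaatca
mRpL10, chr2L:203760-203778, plus strand: aaatatctggcTATCGATA
Ras85D, chr3R:9513070-9513099, minus strand: gcagccatcgcTATCGATAgtgccatcggc
Mesh1, chr3R:29202623-29202652, minus strand: cgctttttattTATCGATAggttttccagg
Rab7, chr3R:23992980-23993007, plus strand: cacgactgcacTATCGATAaccagtact
rasp, chr3L:3162109-3162138, plus strand: gggtataaaaaTATCGATAttttcgctggt
Hsp83, chr3L:3192776-3192805, plus strand: aactctggaaaTATCGATAgtctggtggag
l(3)psg2, chr3L:5583419-5583447, plus strand: ttcgctattaTATCGATAgaactagaagc
The first 7 lie in E-high regions, and the last lies in the EM-high region with sif. The bin of Hsp83 had log2 ratios of 1.07 and 2.69, that of mRpL10 1.25 and 2.73, and that of l(3)psg2 -0.89 and -0.76. Counted over the named regions, the DRE stood in 11, 6, 7, 5 and 3 promoters of the E-high regions, in the order given above. In the EM-high regions it stood in 0, 3, 0, 0 and 0.

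Both Hox promoters of the longest EM-high region held the GAGA letters, shown in capitals on the strand of the gene, where CTCTCTC is the same element read on the other strand.
Dfd, chr3R:6791742-6791770, plus strand: gcaatggcggtGAGAGAGagcgagcgaga
Scr, chr3R:6850058-6850086, minus strand: cactgtccgtcCTCTCTCtcgcactcgtt
Of the 7 promoters of that region, 3 held this motif and 0 the DRE.

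On the scale of whole chromosomes, chromosome 4 was shifted furthest towards E. This small chromosome is rich in repeats and heterochromatin marks but carries active genes. Its median level was 0.967 in E and 0.581 in EM of replicate 1, and 2.42 in E and 0.922 in EM of replicate 2. In ML and L it was 0.836 and 0.943 in replicate 1, and 0.346 and 0.803 in replicate 2. In replicate 1, E thus lay below the median autosomal arm bin and close to L, and EM was the lowest fraction. In replicate 2, E was far above the other fractions. Its mean log2(E/EM) was 0.66 in replicate 1 and 1.77 in replicate 2, over 135 bins. Minus the autosomal arms this was 0.68 and 1.56, or 1.12 ± 0.62 (SD, n = 2). Of its bins, 55.6% were E-high and 0 were EM-high, against 17.8% and 16.3% of autosomal arm bins.

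The X arm was also shifted towards E. Its median level was 0.560 in E and 0.479 in EM of replicate 1, and 0.794 and 0.524 in replicate 2. Its mean log2(E/EM) was 0.22 and 0.65 over 2200 bins, which minus the autosomal arms was 0.24 and 0.44, or 0.34 ± 0.14 (SD, n = 2). E-high bins made up 25.3% of the X arm and EM-high bins 7.41%. In the 3 other fractions of replicate 1 the median level of the X arm lay between 0.479 in EM and 0.566 in L. L of replicate 1 was thus slightly above E. In the other fractions of replicate 2 it lay between 0.385 and 0.560, so E of replicate 2 was the library with the highest X level.

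Pericentromeric sequence and Y were shifted towards EM. Over 1906 pericentromeric bins, the mean log2(E/EM) was -0.29 in replicate 1 and -0.16 in replicate 2. Minus all arms this was -0.31 and -0.46, or -0.38 ± 0.10 (SD, n = 2). For Y the mean was -0.31 and -0.26 over 366 bins, and minus the autosomal arms -0.38 ± 0.13. Few bins were far from 0 in both replicates. In the pericentromeres 4.25% of bins were E-high and 9.08% EM-high, and on Y 0.820% and 6.28%. The highest median levels of the pericentromeres came later, 1.29 in ML of replicate 1 and 3.04 in L of replicate 2.

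Among the autosomal arms, 2R had the highest mean log2(E/EM), 0.07 and 0.32, and 2L the lowest, -0.08 and 0.17. The arms 3L and 3R lay between them in both replicates. For each of the 4 differences between chromosomes (X arm, pericentromeres, 4 and Y) both replicates had the same sign. A two-sided exact sign permutation test with 2 replicates cannot give a p below 0.5, and each gave 0.5.

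The same differences were computed for CySC-like replicate 2, where E over the library labelled EM gave 0.02 for the X arm, 0.30 for chromosome 4, -0.80 for the pericentromeres and -0.88 for Y. This is a single replicate of that cell type, and the differences between cell types were not tested. E over its library labelled ML gave 0.28, 0.04, 0.44 and 0.91, so that library held less pericentromeric and Y sequence than E did, and its place in the order of S phase is unsure.

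**Figure D3:**
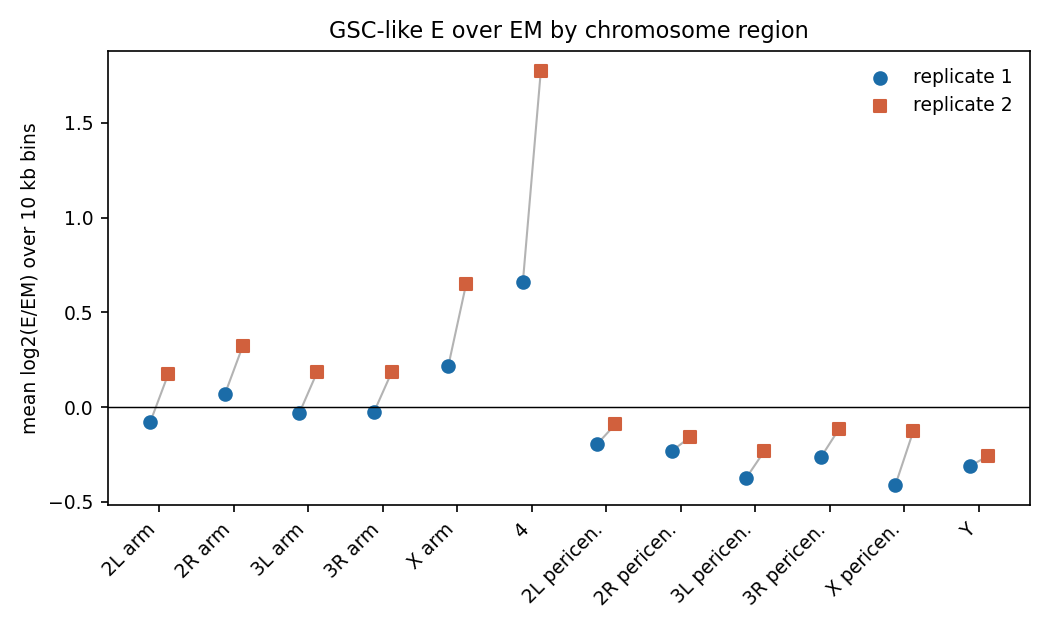
Mean log2(E/EM) of each arm, pericentromere and of chromosomes 4 and Y is shown for replicates 1 and 2. Chromosome 4 (0.66 and 1.77) and the X arm (0.22 and 0.65) lie highest, and the pericentromeres and Y lie below 0 in both replicates.

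The classes were chosen on E and EM, so their levels there are a description, while ML and L were not used. For E-high bins of replicate 1, the median level was 1.14 in E and 0.615 in EM, followed by 0.756 in the ML library and 0.833 in the L library. In replicate 2 it was 1.86, 0.806, 0.410 and 0.839. E-high bins were lowest in EM in replicate 1 and lowest in ML in replicate 2. EM-high bins had median levels of 0.605, 1.20, 1.18 and 0.993 in replicate 1, and of 0.311, 0.861, 1.74 and 1.11 in replicate 2. Their highest median was in EM in replicate 1, with ML close to it, and in ML in replicate 2.

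Counted bin by bin, 44.0% of EM-high bins had their highest level in EM and 42.4% in ML in replicate 1, whereas in replicate 2 only 5.51% peaked in EM and 82.3% in ML. E-high bins peaked in E in 73.4% of cases in replicate 1 and 99.1% in replicate 2, and in L in 21.6% and 0.896%. By the rule of the classes, no EM-high bin can peak in E and no E-high bin in EM. The split between the remaining fractions was not fixed by it. The ML library of replicate 2 was the shallowest, with 0.516 M reads.

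**Figure D4:**
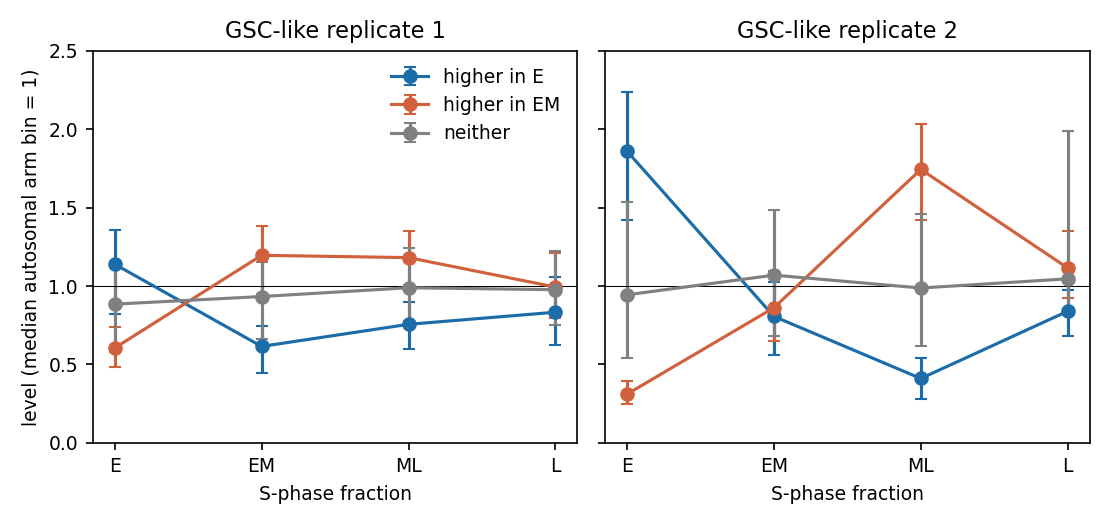
Median level in E, EM, ML and L of bins in the E-high, EM-high and other classes is shown for each replicate, with lines from the lower to the upper quartile of bins. In replicate 2 the EM-high bins go from 0.311 in E to 1.74 in ML, and the E-high bins go from 1.86 to 0.410.

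CySC-like libraries carried part of the same pattern. E over L of CySC-like nuclei, which shares no library with the classes, was above 0 in 83.2% of E-high bins in replicate 1 and 85.5% in replicate 2. Over all bins these shares were 45.6% and 45.8%. It was below 0 in 74.5% and 88.4% of EM-high bins, against 54.4% and 54.2% of all bins. Pearson's r across bins between E over L of CySC-like replicate 2 and log2(E/EM) of the GSC-like replicates was 0.632 and 0.402.

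At the strongest peaks of replicate 2, a set chosen after the values had been seen, replicate 1 had a dip in E. Its other fractions were lower there as well. On the arms, 149 bins had a log2(E/EM) of at least 2 in replicate 2 and no higher bin within 100 kb, so their height in that replicate is given by the choice. In replicate 1, which the choice did not use, the median ratio at these bins was 0.57, lower than the 0.76 at a distance of 50 kb. The level in E of replicate 1 was 0.750 at the peak and 1.28 at a distance of 70 kb, and at 142 of 149 peaks it was lower than the mean at 60 to 80 kb. On the autosomal arms this held at 102 of 105 peaks, with 0.847 at the peak and 1.41 at 60 kb. At the same peaks the level in EM of replicate 1 was 0.514, against 0.784 at 70 kb. That in ML was 0.724 against 0.803, and that in L 0.755 against 0.874. E of CySC-like replicate 1 had a level of 1.13 at the peak, and E of CySC-like replicate 2 had 0.838 there and 1.12 at 70 kb. Autosomal peaks held 2.6 coding starts per bin, against 1.29 at 100 kb.

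With bins ordered by replicate 2, the ratio of replicate 1 levelled off at the high end. Its median went from -0.80 in the 1082 bins with a ratio of replicate 2 below -1, through 0.17 in those between 0 and 0.5, to 0.73 between 1.5 and 2. In the 405 bins above 2.5, of which 42.2% lay on the X against 13.0% in the lowest class, it was 0.56. Still, 97.5% of these 405 bins were above 0 in replicate 1. Ordered by replicate 1 instead, the median of replicate 2 went on upward, from 0.46 between 0 and 0.5 to 1.30 between 0.5 and 1 and 1.57 above 1.

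Gene lists were read through the bin that holds each gene's start. Of 13967 coding genes, 28.9% start in E-high bins and 9.02% in EM-high bins, and their median log2(E/EM) was 0.32 in replicate 1 and 0.70 in replicate 2. In both replicates 61.8% of them were above 0 and 25.2% below 0. Counts of list genes are read against these shares. No list gene passed limma under the main scaling. The RPKM values of a gene below are those of its bin, so genes that share a bin have the same value.

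Of 27 genes of replication licensing, initiation and timing, 9 start in E-high bins and 1 in an EM-high bin (33.3% and 3.70%). The list medians, 0.37 and 1.03, lay a little above those of all coding genes. Orc1, a subunit of the origin recognition complex, had 7.19 and 3.16 RPKM in E and EM of replicate 1 and 11.9 and 2.58 in replicate 2, with log2 ratios of 1.13 and 2.44. PolA1, the catalytic subunit of DNA polymerase alpha, had ratios of 0.91 and 1.34, both towards E. SuUR, which in flies slows replication of late regions in polytene chromosomes, had 0.89 and 2.01, and geminin, the inhibitor of licensing, 0.74 and 2.83. Below 0 in both replicates were 5 of the 27. Of these Mcm7, a subunit of the replicative helicase, was the EM-high gene, with 5.63 and 10.4 RPKM in replicate 1 and 2.17 and 4.78 in replicate 2, or ratios of -0.91 and -0.83. Psf2 of the GINS complex, the next lowest by p towards EM, had -0.30 and -0.79. The loader gene Cdc6 had -0.42 and -0.34, Orc4 -0.12 and -0.15, and Cdc45 -0.02 and -0.49. Rif1, a regulator of replication timing, was near 0, at 0.06 and 0.09.

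The germline genes had higher ratios than coding genes overall mainly in replicate 2. Of 8 genes for germline stem cells and their differentiation, 7 were above 0 in both replicates, 1 was E-high (12.5%) and 0 were EM-high. The list medians were 0.40 and 1.80, which is 0.085 above that of all coding genes in replicate 1 and 1.09 above it in replicate 2. The E-high gene was bgcn, a partner of bam, with 7.19 and 3.91 RPKM in replicate 1 and 9.05 and 2.75 in replicate 2, ratios of 0.83 and 1.96. The differentiation factor bam had ratios of 0.49 and 1.63, the translational repressor nanos 0.36 and 2.47, the piRNA protein aub 0.40 and 2.48, and ovo 0.51 and 2.14. The gap junction gene zpg had 0.41 and 1.20, and AGO3, of the piRNA pathway, 0.06 and 1.04. The germline helicase vas was the member without a common sign, at -0.04 and 1.35.

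The genes of the somatic cyst lineage lay nearer to 0, with medians of 0.31 and 0.40. Of 8 genes, tj was E-high, at 0.60 and 0.95, and Socs36E was EM-high, at -0.78 and -0.64. The gene tj encodes the transcription factor whose promoter drives the CySC-like tumours. Between them, zfh1 had 0.32 and 0.62, ImpL2 0.38 and 0.76, so 0.43 and 0.27, Egfr 0.31 and 0.27, ptc 0.29 and 0.54, and eya 0.00 and -0.25.

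Within the JAK-STAT pathway, the ligand genes lay towards EM and most of the others towards E. The ligand genes, neighbours on the X, had negative ratios in both replicates: upd1 had -0.57 and -0.12, upd2 -1.32 and -0.02, and upd3 -0.86 and -1.12. The RPKM of upd3 was 1.80 and 3.26 in replicate 1 and 0.534 and 1.57 in replicate 2. The receptor gene dome had 0.12 and 2.66, and et, a related receptor that dampens the signal, 0.91 and 3.13. The kinase gene hop had 0.42 and 2.48. Stat92E, the transcription factor of the pathway, had 8.43 and 3.99 RPKM in replicate 1 and 10.1 and 3.57 in replicate 2, ratios of 1.02 and 1.75. Among the negative regulators Socs36E lay towards EM, as above, while the phosphatase gene Ptp61F had 0.82 and 1.47 and the SUMO ligase gene Su(var)2-10 had 0.31 and 2.52. In all, 3 of 10 genes were E-high and 2 were EM-high. The list median was 0.90 above that of all coding genes in replicate 2 and -0.10 relative to it in replicate 1. The UAS - Upd transgene carries ligand sequence, and its part in the reads of these bins was not tested.

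Of 8 genes of dosage compensation, by which male flies raise transcription of the X, 4 were E-high and 1 was EM-high. The acetyltransferase gene mof had 0.92 and 2.63, the helicase gene mle 0.94 and 1.47, Clamp, which binds the X at entry sites, 0.67 and 1.69, and lncRNA:roX2 1.03 and 2.23. The EM-high member was msl-3, whose chromodomain protein reads methylated H3, with 3.66 and 8.22 RPKM in replicate 1 and 1.58 and 3.92 in replicate 2, ratios of -1.18 and -0.99. The other RNA of the complex, lncRNA:roX1, had opposite signs, 0.49 and -0.91. The scaffold gene msl-1 had 0.38 and 1.97, and msl-2, the male-specific subunit, 0.23 and 0.32.

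The genes of spermatocyte meiotic arrest, which act in spermatocytes, lay on both sides. Of 10, aly, topi and mia were E-high, with ratios of 0.84 and 0.85, 1.18 and 2.19, and 0.80 and 2.27. Among the same 10, comr, can and Taf12L were EM-high, with -1.26 and -0.64, -0.93 and -0.71, and -0.89 and -0.77. The remaining tomb had 0.16 and 0.84, sa 0.24 and 0.55, mip40 -0.66 and 0.01, and nht -0.32 and 1.01. The proteins of aly and comr work in 1 complex, but their genes lay in opposite classes.

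The Hox genes, held silent by Polycomb in many tissues, lay towards EM. Of 8, 0 were E-high and 4 were EM-high, and the medians were -0.67 and -0.88. Ubx had 4.13 and 7.68 RPKM in replicate 1 and 0.992 and 2.84 in replicate 2, ratios of -0.91 and -1.15. The neighbouring abd-A had -0.96 and -0.77, Scr -0.93 and -0.79, and Dfd -0.79 and -0.97. Antp, with -0.20 and -1.50, and pb, with -0.55 and -1.07, were below 0 in both replicates but not by 1.5-fold in replicate 1. Signs were opposite for lab, -0.07 and 0.74, and for Abd-B, 0.15 and -0.62. With equal mean scaling limma called 6 of the 8 higher in EM, at adjusted p from 0.00545 for Ubx to 0.0243 for Antp. Of all coding genes, 11.6% start in bins called so. On 3R the genes from lab to Antp are neighbours, as are those from Ubx to Abd-B, so they are not independent values. As stated above, equal mean scaling moved every bin towards EM in replicate 2.

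Of 10 listed genes of pericentromeric heterochromatin, 0 were E-high, 0 were EM-high and 6 were above 0 in both replicates (60%, near the 61.8% of all coding genes). Other genes of these regions did reach the classes. Of 312 coding genes that start in pericentromeric bins, 63 were E-high and 36 EM-high (20.2% and 11.5%), among them Clamp and mle, both E-high. Both start close to the boundaries taken here, Clamp at chr2L:22169143 (boundary 22 Mb) and mle at chr2R:5980778 (boundary 6 Mb). The 312 genes had medians of 0.24 and 0.33, whereas the means of all pericentromeric bins were -0.29 and -0.16. In both replicates 54.2% of these genes were above 0 and 32.4% below 0, against 61.8% and 25.2% of all coding genes. Of the listed genes, Nipped-A, a cofactor of acetyltransferase complexes, had 0.55 and 0.77, RpL5 0.55 and 1.16, Parp1 -0.52 and -0.35, and lt, a gene for vacuolar trafficking, -0.23 and -0.62. The MAP kinase gene rl had -0.01 and 0.08, cta -0.32 and -0.19, Nipped-B, the cohesin loader, 0.27 and 0.50, uex 0.44 and 0.32, and Dbp80 0.24 and 0.61, and AGO3 has its values above. Of 11 fertility genes of Y with a value, 0 were E-high and 0 EM-high, and 8 were below 0 in both replicates (72.7%, against 25.2% of all coding genes). ARY had -0.57 and -0.75, and Pp1-Y2 -0.63 and -0.44. Pp1-Y1 went the other way in replicate 2, with -0.10 and 2.79. The bin of ORY had 88.7 and 91.4 RPKM in replicate 1 and 119 and 207 in replicate 2, and that of kl-5 19.8 and 22.7, and 68.0 and 109. These Y genes hold repeats, and how reads with several matches were placed is not given in the sources used here.

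Of 9 genes of chromosome 4 with a value, 5 were E-high and 0 EM-high (55.6% and 0%). The 135 bins of the chromosome had the same shares, so the count is not a result about these genes. The eye gene toy had 8.42 and 3.57 RPKM in replicate 1 and 13.1 and 3.41 in replicate 2, ratios of 1.18 and 2.18. The Hedgehog effector gene ci had 0.74 and 2.45, zfh2 0.80 and 2.12, Ephrin 0.69 and 2.01, and sv 1.05 and 1.36. The translation factor gene eIF4G1 had 0.11 and 1.56. The genes pan and RpS3A, which share a bin, had ratios of -0.0032 and 3.08, and ey had 0.26 and 3.08.

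**Figure D5:**
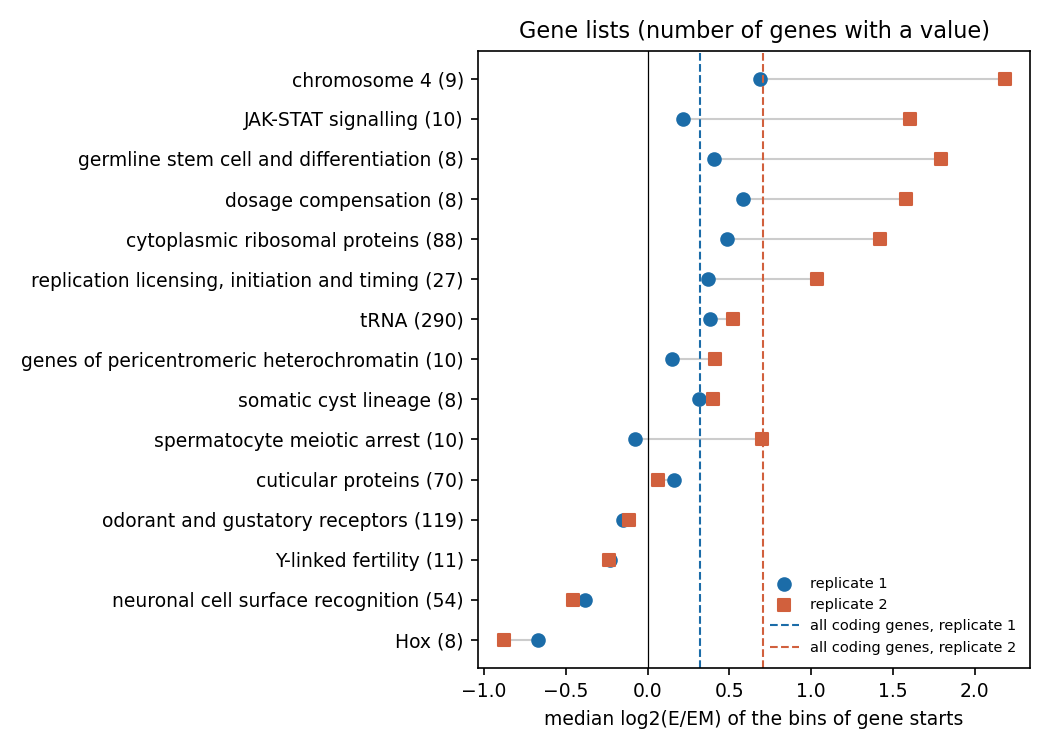
Median log2(E/EM) of each gene list is shown for replicates 1 and 2 beside that of all coding genes (0.32 and 0.70). The Hox list (-0.67 and -0.88) and the neuronal surface list (-0.38 and -0.45) lie lowest, and the chromosome 4 list (0.69 and 2.18) highest.

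Among the larger families, genes for ribosomal proteins had medians above those of all coding genes in both replicates. Of 88, 30 were E-high and 0 EM-high (34.1% against 28.9% of all coding genes), with medians of 0.49 and 1.42. RpS29 had 6.69 and 2.83 RPKM in replicate 1 and 9.56 and 2.46 in replicate 2, ratios of 1.18 and 2.19. RpL17 had 1.38 and 1.80. At the other end, RpL10Aa had -0.53 and -1.19 and RpS7 -0.36 and -1.12. The tRNA genes came close to the background, with 94 of 290 E-high and 26 EM-high (32.4% and 8.97%). These 290 genes share 155 bins, so they are not separate values. The gene tRNA:Gly-TCC-1-2 had 1.52 and 2.44, and tRNA:Gln-CTG-2-1 1.65 and 2.03. Towards EM, tRNA:Gly-TCC-2-1 had -0.95 and -1.50, and tRNA:Thr-TGT-2-5 -0.83 and -1.38.

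Of 54 genes for neuronal surface recognition, 4 were E-high and 14 EM-high (7.41% and 25.9%), with medians of -0.38 and -0.45. DIP-kappa had 5.45 and 10.1 RPKM in replicate 1 and 1.52 and 4.22 in replicate 2, ratios of -0.91 and -1.14, and dpr13 had -0.86 and -1.45. In the other direction dpr7, on chromosome 4, had 1.15 and 0.96, and side-VII, in the longest E-high region, 0.86 and 1.69. Of 119 odorant and gustatory receptor genes, 16 were E-high and 23 EM-high (13.4% and 19.3%), with medians of -0.15 and -0.11. Or23a had -1.13 and -1.31 and Gr58a -1.49 and -1.06, whereas Gr39b had 1.43 and 1.80 and Or85e 1.29 and 1.47. Of 70 cuticular protein genes, 12 were E-high and 6 EM-high (17.1% and 8.57%), with medians of 0.16 and 0.07. Cpr47Ea had 1.04 and 0.94 and Cpr47Ed 1.19 and 0.97, while Cpr65Ea had -1.10 and -1.08 and Cpr78E -0.99 and -0.66.

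The histone gene cluster, chr2L:21416953-21541681, has its 111 annotated genes in a tandem array of near-identical repeats, and its values depend on how reads with several matches were placed. Over 14 bins its mean log2(E/EM) was 0.21 in replicate 1 and 2.80 in replicate 2. Its level was 2.28 in E and 1.99 in EM of replicate 1, and 55.8 in E and 9.63 in EM of replicate 2. The replicates thus differed more here than in any named region, and the lowest limma adjusted p of its bins was 0.0925. More generally, bins above 5 times the median autosomal arm level numbered 9 in E and 14 in EM of replicate 1, but 207 and 575 in replicate 2.

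On the X, the DRE followed the classes on the arm but not in the pericentromere. On the X arm it stood in 125 of 758 promoters in E-high bins (16.5%), in 3 of 87 in EM-high bins (3.45%) and in 12.8% of all. Of the 20 X promoters with a DRE in EM-high bins, 17 lay in the pericentromere, at gene starts from 22143058 to 22251582. In the X pericentromere the DRE stood in 17 of 23 promoters in EM-high bins and in 26 of all 59 (44.1%). Its E-high bins held only 4 promoters, 1 of them with the DRE. Across the genome, genes with the DRE had median log2 ratios of 0.50 and 1.34, and those without it 0.29 and 0.63.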

How the data were processed

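Values were deposited by the authors as a table with 1 column per library, in overlapping windows of 3 kb whose starts lie 1 kb apart. The table names no unit. The deposited values were read as RPKM. In each of the 4 libraries, 100% of windows were whole multiples of what 1 read is worth (tolerance 0.02 reads). Read as RPKM, that step gives the library's total. Windows of equal length give whole multiples under any scaling by reads, so this cannot tell RPKM from a unit without the length. The read numbers quoted here rest on the reading as RPKM. Per the submitters' processing notes, reads were aligned with Bowtie2 2.4.5 and the build was dm6. How duplicates and multiply matching reads were handled is not given in the sources used here.

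Windows were averaged to 10 kb bins by their centre, and bins at 0 in 2 or more of the 4 libraries were left out. To each value 0.1 RPKM was added before log2, which makes folds of low-signal bins too small. The median log2(E/EM) of autosomal arm bins was set to 0 in each replicate. limma 3.58.1 (R 4.3.3) was fitted with a variance trend and the replicate as a block, since per the design text the fractions of a replicate come from the same sort. Deviations of E and EM of the same number from their group means had a correlation of 0.706 over bins. P-values were adjusted by Benjamini-Hochberg over all bins, with a threshold of 0.05. The fit was tested on simulated data. Pericentromeres were taken in Mb as 2L from 22, 2R to 6, 3L from 23, 3R to 5 and X from 22. Genes come from Ensembl release 115. The list gene Pho4 was not matched, and kl-2 was left out because its bin was at 0 in both libraries of replicate 2.

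The members, the lists and the tests were chosen with earlier results of these data known. The naming rule took the 5 longest merged regions in each direction, up to 4 of their longest coding genes, every member of lists of up to 10 genes, and the 2 lowest p-values in each direction of longer lists. Since no bin passed, regions were taken from the 1.5-fold classes instead of from calls. Genes named outside the rule (geminin, SuUR, Rif1, Cdc6, Orc4, Cdc45, ORY, kl-5 and those of the printed promoters) were chosen after their values had been seen. Alternatives covered scaling, pseudocount, filters, bin size, GC correction (lowess, statsmodels 0.14.6), the fit and each replicate left out. Those added after the data were seen were voom on recovered reads, equal SD of the replicates, and bins over 5 times the median left out. Python 3.11.15, pandas 2.3.3, numpy 2.4.6 and matplotlib 3.10.9 were used.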

Additional observations from a re-analysis of the deposited data

Results flagged for a closer look

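In 4 results both GSC-like replicates had one sign of log2(E/EM) and CySC-like replicate 2, with its library labelled EM, had the other. None of these differences was tested, since CySC-like has a single EM library. The signs also depend on where 0 is set. In CySC-like the mean of the autosomal arms was -0.08, and the X arm minus these arms was 0.02, above 0 as in GSC-like. The median of all coding genes was 0.11 in CySC-like, beside 0.32 and 0.70 in GSC-like. The receptor list lay below that median in each. The JAK-STAT list lay below it in CySC-like and in GSC-like replicate 1, and the germline list in CySC-like alone. The mean of the X arm was 0.22 and 0.65 in GSC-like (mean 0.435) and -0.06 in CySC-like, or 0.31 there with the library labelled ML in its place. The germline list had medians of 0.40 and 1.80 (mean 1.10) against -0.08, or -0.16 with ML. The JAK-STAT list had 0.22 and 1.61 (mean 0.912) against -0.04, or 0.11 with ML. The odorant and gustatory receptor list had -0.15 and -0.11 (mean -0.131) against 0.05, or -0.08 with ML.

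Outside the chromosomes compared, the scaffold named for rDNA (77 windows) had a mean of 444.2 RPKM in E of replicate 2, which is 102.2 times the median autosomal window. It had 281.5 RPKM in EM, 91.3 in ML and 196.0 in L of that replicate, against 71.1, 73.9, 64.0 and 58.3 in E, EM, ML and L of replicate 1.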

How the results depend on the processing

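Counts of bins passing limma were 0 in both directions under the main scaling and remained 0 with no replicate block (0 higher in E, 0 higher in EM), with voom and under the other alternatives, except these. With equal mean scaling 2556 bins were higher in E and 2414 in EM, and with values as deposited 2570 and 2214. Of list genes, 199 and 112 then lay in called bins with equal mean scaling, and 200 and 103 as deposited. Of all coding genes, 33.3% and 11.6% start in bins called with equal mean scaling. The counts of list genes are given here only to show how they move with the processing. Leaving out a replicate, with the spread taken from CySC-like E and L, gave 0 to 2108 bins higher in E and 0 to 117 in EM, and 0 to 155 and 0 to 3 list genes. Within that range the higher counts are those without replicate 1. Single replicates put 2728 to 4422 bins past 1.5-fold towards E and 2935 to 3267 towards EM, against 2344 and 1851 in both. A pseudocount of 1 left 1082 EM-high bins. The differences between chromosomes kept their sign under every alternative run and, with both replicates in, stayed within 1 SD of them. With both replicates in, 132 of 143 region means kept their sign, as did 149 of 150 list medians against all coding genes (not tRNA) and 90 of 90 values of named regions, 27 of which moved by over 1 SD. With a replicate left out, 4 of 26 region means changed sign (2L, 3L, 3R and the autosomal arms, also the exceptions above), 2 of 30 list medians (JAK-STAT and tRNA) and 0 of 20 named regions. edgeR and DESeq2 were planned but not run, because the values were read as RPKM. Replicate 2 limits precision, at 120 reads for its median EM arm bin.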
